A study of Pardosa pseudoannulata with 16 samples.

Results

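UL and Ck are 2 of the 4 groups of a study of Pardosa pseudoannulata, sampled as whole animals. This wolf spider is a predator of insects in paddies. The comparison uses 8 of the 16 RNA libraries, 4 per group. The libraries were taken by the group name in their titles. The study collected adult spiders in rice fields, kept them in the laboratory and then on soil with urea at 0, 200 or 400 mg/kg for 30 days; these 3 concentrations are not tied to the 4 groups, and every sample, Ck included, carries the label of urea treatment. No concentration was therefore given to UL or Ck, and Ck was used as the reference because control groups are often abbreviated in that way. Nothing in the labels says how many spiders went into a library or whether replicates came from separate animals, so the spread that the p-values rest on may be technical.

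Urea is a nitrogen fertiliser that soil microbes turn into ammonia, and spiders dispose of their own waste nitrogen mainly as guanine. In a whole animal, RNA of muscle, midgut gland, gonads and venom and silk glands is read together, so a large difference can reflect less RNA per cell or fewer cells of a type, and these cannot be told apart. The rows of the table are 136360 sequence clusters of up to 45289 bases, assembled from RNA reads, and no cluster is paired with a gene name. The labelled tissue could thus not be checked against marker genes, and clusters are described by level, length and pattern. Several clusters may stem from a single transcript, so clusters are not counted as genes.

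Levels are FPKM, sequenced fragments per kilobase of cluster after division by the library's mapped fragments. Depth, estimated from the steps between low values, was 17645000 to 20960000 fragments in the Ck libraries and 18780000 to 19600000 in the UL libraries. The test took the 29578 clusters that reached 1 FPKM in 4 or more of the 8 libraries. Changes are differences of mean log2(FPKM + 1), UL minus Ck, a scale that understates the change of clusters with low levels.

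One library was on average nearer to the other group than to its own. Ck replicate 2 had a mean correlation across clusters of 0.82 with the other Ck libraries and 0.86 with the UL libraries. Within Ck its correlation was 0.764 with replicate 1, 0.835 with replicate 3 and 0.856 with replicate 4. Each of the other 7 libraries was nearer to its own group, the closest case being Ck replicate 4 with 0.88 and 0.86. These are correlations of log2 levels over the tested clusters, which are not independent replicates. It was kept in the group its label gives. Whether that label is right was not tested, and with another label the counts of calls below would have another meaning. Calls, separation and sizes of change are therefore also given without it.

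Between UL and Ck, most clusters differed little, and as deposited the small and the large differences leaned in opposite directions. As deposited, 19385 clusters (65.5%) had the higher mean in UL and 10193 (34.5%) the lower. The median log2 fold change was 0.12, a ratio of 1.09, and the middle 50% of clusters lay between -0.10 and 0.30. Among larger changes the balance turned. A log2 fold change of at least 1 was reached by 565 clusters upward and 1420 downward, and one of at least 2 by 55 upward and 412 downward. Without Ck replicate 2 the median was 0.14, 66.7% of clusters had the higher mean in UL, and a change of at least 1 was reached by 1007 clusters upward and 1618 downward.

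Scaling changed the balance of the small differences, and the large ones leaned downward on both scales. Median ratio scaling divides each library by its median ratio to the mean profile, and its factors were 0.932 to 1.24 in UL and 0.945 to 1.09 in Ck. Under it the median log2 fold change was 0.02, and 53.1% of clusters had the higher mean in UL. Of the changes of at least 1 on the log2 scale, 422 were then upward and 1560 downward, so the share that was lower was 71.5% as deposited and 78.7% after scaling. Without Ck replicate 2 these shares were 61.6% and 70.6%. UL replicates 1, 2 and 4 had the highest factors of the 8 libraries and UL replicate 3 the lowest. As deposited, UL replicate 3 was the lowest of the 8 in 18.2% of clusters, and in 9.56% after scaling. Ck replicate 1 was the lowest most often, in 30.4% as deposited and 21.7% after scaling. UL replicate 4 was the highest in 29.1% as deposited and 15.7% after scaling.

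**Figure D1:**
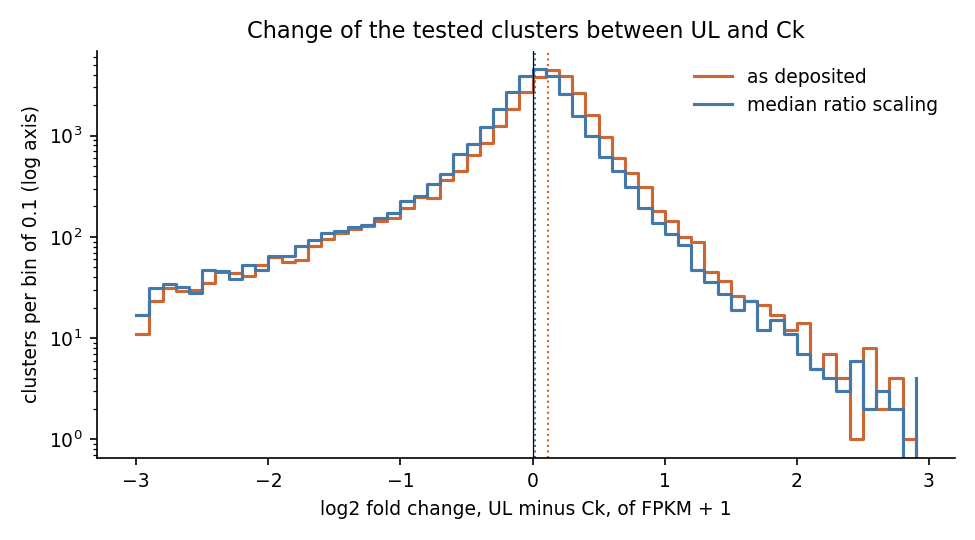
The plot counts tested clusters (log axis) by log2 fold change, UL minus Ck, in bins of 0.1 from -3 to 3, as deposited and after median ratio scaling, with dotted lines at the medians of 0.12 and 0.02. The left tail is the heavier one on both scales, with 1420 clusters at -1 or below and 565 at 1 or above as deposited.

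Separation of the groups was counted without a model, as clusters whose 4 UL values and 4 Ck values did not overlap. There were 1543 of these, 5.22% of those tested. Of all orderings of 4 against 4 distinct values, a share of 0.0286 is free of overlap in either direction. The clusters are not independent, and the counts were not tested against that share. In 1189 (4.02%) UL was higher and in 354 (1.2%) it was lower. The separated clusters that were higher in UL had small differences, with a median log2 fold change of 0.43. Their median level was 3.46 to 4.32 FPKM in the Ck libraries and 5.42 to 6.56 FPKM in the UL libraries. Those lower in UL had a median of -0.82, with 3.21 to 4.25 FPKM in Ck and 1.40 to 1.73 FPKM in UL. After median ratio scaling 914 were higher (3.09%) and 611 lower (2.07%), so the share that was lower was 22.9% as deposited and 40.1% after scaling. Of the separated clusters with a change of at least 1, 125 were higher and 141 lower as deposited.

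Few clusters passed a test against the spread between libraries. In limma, fitted on all 16 libraries with Benjamini-Hochberg adjustment over the 29578 clusters, 9 passed an adjusted p of 0.05 (0.0304%), of which 1 rose (0.00338%) and 8 fell (0.027%). An unadjusted p under 0.05 was reached by 3199 clusters that were higher in UL (10.8%) and 1807 that were lower (6.11%); after median ratio scaling these were 1781 and 2483. After scaling 12 passed (0.0406%), 1 that rose (0.00338%) and 11 that fell (0.0372%), the 9 among them. Fitting these 8 libraries alone gave 1 call, and limma with a weight per library gave 530 (1.79%), of which 142 rose (0.48%) and 388 fell (1.31%). The lowest weights were those of UL replicate 4 (0.467), Ck replicate 2 (0.477), Ck replicate 1 (0.516) and UL replicate 3 (0.522).

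The longest of the 9 clusters had the lowest adjusted p. Cluster-9253.50222 (11556 bases) reached 9.54, 33.32, 12.59 and 13.37 FPKM in Ck, while every UL library was listed at 0 (adjusted p = 6.06e-06). The Ck values are worth 2133, 7882, 2508 and 2858 estimated fragments. It was also listed at 0 in all 8 UM and UH libraries, and it passed the filter through Ck alone. Its call held under each setting in which it was tested, with a highest adjusted p of 0.0452. A filter of at least 1 FPKM in all 8 libraries removed it.

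Cluster-9253.30216 (968 bases) was the most abundant of the called clusters that had a level above 0 in every UL library. It had 12.32, 24.66, 12.82 and 19.46 FPKM in Ck, against 3.66, 3.65, 3.32 and 3.0 FPKM in UL. All UL values lay within a narrow band below all Ck values, 17.3 ± 5.88 against 3.41 ± 0.314 FPKM (SD, n = 4), and the log2 fold change was -2.0 ± 0.22 (SE), adjusted p = 0.00318. In UM it had 3.39 to 4.71 FPKM and in UH 1.93 to 4.64 FPKM. Its call was lost in the fit of the 8 libraries alone (adjusted p = 0.189).

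Of the other falls, 3 were on clusters of over 1000 bases. Cluster-9253.53858 (1147 bases) had 3.52, 5.11, 3.28 and 5.1 FPKM in Ck, against 1.09, 1.11, 1.38 and 0.87 FPKM in UL (a log2 fold change of -1.30 ± 0.17; adjusted p = 0.0112). Cluster-9253.39500 (3307 bases) had 3.84, 4.86, 3.27 and 4.07 FPKM in Ck, against 1.51, 0.9, 0.92 and 0.81 FPKM in UL (a log2 fold change of -1.30 ± 0.20; adjusted p = 0.0419). Cluster-9253.41830 (1176 bases) had 1.17, 1.68, 2.79 and 1.84 FPKM in Ck, against 0, 0.28, 0.34 and 0.3 FPKM in UL (a log2 fold change of -1.20 ± 0.18; adjusted p = 0.0419). In each of them every Ck library was above every UL library. Cluster-9253.41830 was under 1 FPKM in every UL library and so passed the filter through Ck alone. The calls on Cluster-9253.39500 and Cluster-9253.41830 were lost without any 1 UL library, that on Cluster-9253.39500 also without Ck replicate 1, and that on Cluster-9253.53858 was lost without UL replicate 1 (highest adjusted p 0.12, 0.134 and 0.0589). In the fit of the 8 libraries alone only Cluster-9253.50222 passed.

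The other 4 calls were on clusters of 302 to 353 bases and rested on few fragments. Each was under 1 FPKM in every library of its lower group. Each thus passed the filter only through the group where it was high. Cluster-9253.40419 (302 bases), the 1 cluster that rose, had 2.94, 3.14, 1.06 and 3.64 FPKM in UL, worth about 2, 3, 1 and 2 fragments, and was listed at 0 in all 12 other libraries (adjusted p = 0.00318). The 4 Ck libraries gave Cluster-9253.22097 (317 bases) levels of 3.92, 7.16, 2.0 and 2.47 FPKM, worth about 4, 8, 2 and 3 fragments, and UL was listed at 0 throughout (adjusted p = 0.0112). Cluster-9253.77265 (332 bases) had 1.55, 5.76, 1.62 and 1.36 FPKM in Ck, worth about 2, 8, 2 and 2 fragments, and 0 in every UL library (adjusted p = 0.0419). At this depth a level below about 1 fragment cannot be seen on clusters so short.

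Cluster-9253.76417 (353 bases) was the 1 called fall whose UM and UH libraries lay at the level of Ck. It had 3.03, 3.36, 1.91 and 3.79 FPKM in Ck, against 0, 0.54, 0.54 and 0 FPKM in UL, which is 3 to 7 fragments against 0 or 1 (log2 fold change -1.67 ± 0.26, adjusted p = 0.0419). Its UM values were 1.82 to 3.98 FPKM and its UH values 1.86 to 4.65 FPKM. The call was lost without any 1 UL library or Ck replicates 1 or 4, those on Cluster-9253.77265 without any 1 UL library or Ck replicate 1, and that on Cluster-9253.22097 without UL replicates 1 or 3 (highest adjusted p 0.134, 0.134 and 0.0589).

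**Figure D2:**
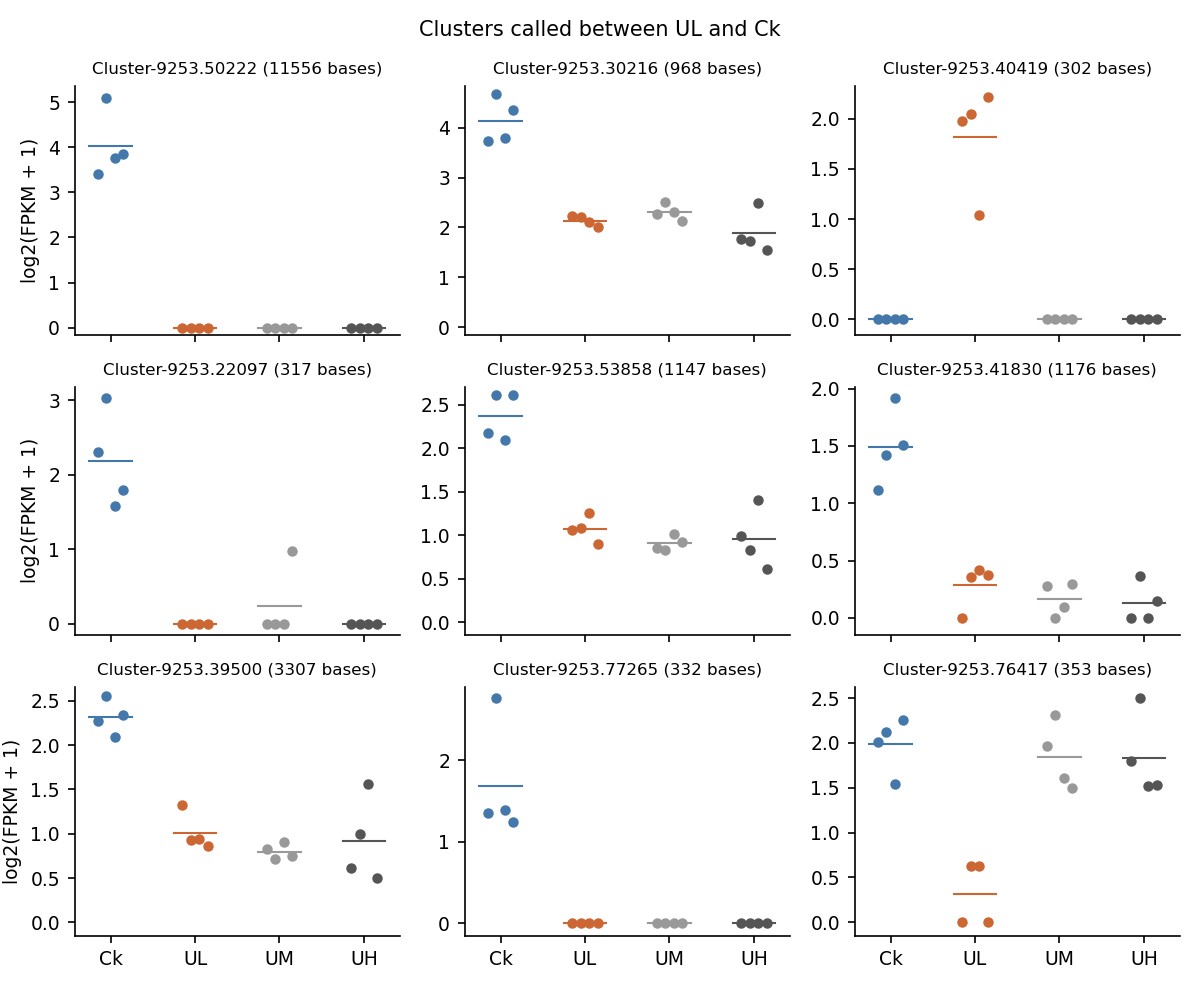
Each panel gives log2(FPKM + 1) of 1 of the 9 called clusters in the 16 libraries by group, a point per library and a line at the mean of n = 4. Ck lies above UL in 8 panels and UL alone is above 0 for Cluster-9253.40419; the UM and UH points of Cluster-9253.76417 lie at the level of Ck.

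The largest separated differences among well expressed clusters were lower levels in UL. None of them passed, and their Ck libraries spread widely. Cluster-9253.47406 (5611 bases) had 458.47, 63.96, 11.98 and 275.88 FPKM in Ck, against 0.35, 2.31, 1.17 and 0.37 FPKM in UL. The groups did not overlap, and the ratio of means, Ck to UL, was 193 (log2 fold change -5.74 ± 1.00, adjusted p = 0.07). Cluster-9253.48358 (8023 bases) had 169.87, 23.85, 4.97 and 103.94 FPKM in Ck, against 0.15, 0.51, 0.37 and 0.4 FPKM in UL (adjusted p = 0.0863). The ratio of the levels of these 2 clusters was 2.41 to 2.70 in the 4 Ck libraries, so their differences are not taken as independent. In UM they reached up to 1071 and 317 FPKM and in UH up to 7915 and 2151 FPKM, above any Ck library.

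Other separated clusters ranked the Ck libraries differently. Cluster-9253.48776 (1514 bases) had 115.91, 128.1, 31.47 and 1.51 FPKM in Ck, against 0.34, 0.54, 0.29 and 0.52 FPKM in UL (a log2 fold change of -4.55 ± 0.87; adjusted p = 0.0793), and at most 0.17 FPKM in UM and 0.54 FPKM in UH. Cluster-9253.46526 (450 bases) had 115.32, 5.55, 177.13 and 6.55 FPKM in Ck, against at most 1.08 FPKM in UL (adjusted p = 0.182). Cluster-9253.41671 (756 bases) had 8.44, 7.36, 71.51 and 53.22 FPKM in Ck, against at most 0.99 FPKM in UL (adjusted p = 0.179). Cluster-9253.41748 (924 bases) had 23.44, 97.94, 69.25 and 36.49 FPKM in Ck, against 5.3, 1.4, 1.08 and 9.63 FPKM in UL (adjusted p = 0.0721). The Ck library with the lowest level was not the same in these 6 clusters, and all 6 passed without Ck replicate 2 (adjusted p = 0.0057 to 0.0199). Cluster-9253.47406 and Cluster-9253.48358 also passed without Ck replicate 3, and Cluster-9253.48776 without Ck replicate 4 (adjusted p = 1.06e-05), in each case the Ck library with the lowest level. In Cluster-9253.48776 and Cluster-9253.41748 Ck replicate 2 was the highest Ck library. Without it their log2 fold changes were smaller, at -3.90 ± 0.846 and -3.23 ± 0.695 (SE), and those of the others were larger. An adjusted p also depends on how many other clusters pass, and 1478 clusters passed without Ck replicate 2.

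None of the 6 largest differences upward among well expressed clusters that were separated as deposited passed. They were named for their size, which a single very low Ck value increases. The largest, in Cluster-9253.92701, was a log2 fold change of 3.89 ± 1.17 (SE), and its levels are given below. Cluster-9253.68278 (832 bases) had 0.18, 133.41, 70.89 and 68.6 FPKM in Ck, against 534.81, 371.64, 296.62 and 169.18 FPKM in UL (adjusted p = 0.408). Cluster-9253.43671 (505 bases) had 9.93, 2738.48, 1576.75 and 419.37 FPKM in Ck, against 4164.21, 2743.97, 2763.98 and 3251.99 FPKM in UL (adjusted p = 0.541). Cluster-9253.58313 (342 bases) followed the same order in Ck, with 20.45, 1687.18, 1301.42 and 536.47 FPKM against 2008.24 to 3235.62 FPKM in UL (adjusted p = 0.626). In Cluster-9253.68278, Cluster-9253.43671 and Cluster-9253.58313 Ck replicate 1 was by far the lowest of the 8 libraries. These 3 were also low in UM replicate 3 (0, 0.25 and 0 FPKM in that order) and UH replicate 4 (0.92, 5.8 and 0 FPKM). In Cluster-9253.43671 Ck replicate 2 nearly reached the lowest UL library, and the groups overlapped after median ratio scaling.

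Cluster-9253.53036 and Cluster-9253.16342 varied less within Ck. Cluster-9253.53036 (1202 bases) had 6.13, 68.23, 48.25 and 55.87 FPKM in Ck, against 230.92, 361.1, 203.32 and 183.64 FPKM in UL, a ratio of means of 5.49 (log2 fold change 2.79 ± 0.65, adjusted p = 0.163). Cluster-9253.16342 (432 bases) had 1.88, 7.92, 8.5 and 6.62 FPKM in Ck, against 26.27, 62.37, 57.52 and 26.72 FPKM in UL, a ratio of means of 6.94 (log2 fold change 2.64 ± 0.47, adjusted p = 0.07). Both passed without Ck replicate 2 (adjusted p = 0.0164 and 0.0057). Their UM values were 39.45 to 262.72 and 9.45 to 40.08 FPKM.

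Some clusters were listed above 0 in every library of one group and at 0 in the other. UL was the group at 0 in 9 of the 29578 tested clusters and Ck in 6. The filter admits such a cluster only if all 4 libraries of the other group reach 1 FPKM. Its separation is thus fixed by the filter and is no further support for a difference. Beside those already given, the clusters with the highest levels were Cluster-9253.92701, Cluster-9253.8283 and Cluster-9253.3052. Outside UL, Cluster-9253.92701 (3566 bases) was listed at 0 in each of the 12 libraries, and UL had 423.03, 22.66, 1.13 and 1.27 FPKM in UL, which is 73.2 estimated fragments in its lowest library. Its UL values spanned more than 2 orders of magnitude (adjusted p = 0.194). Cluster-9253.8283 (317 bases) had 10.63, 1.79, 5.0 and 2.47 FPKM in Ck, with UL listed at 0 (adjusted p = 0.141). Cluster-9253.3052 (315 bases) was listed at 0 in Ck and had 1.16, 1.71, 1.73 and 10.02 FPKM in UL, worth about 1, 2, 2 and 7 fragments (adjusted p = 0.183), with 1.0 to 4.98 FPKM in UM.

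By abundance, the small upward lean was alike in all classes up to 100 FPKM, while large downward differences were more frequent at higher levels up to 1000 FPKM. Classes were set by the mean over the 8 libraries. The median log2 fold change was 0.11 in the 7905 clusters under 2 FPKM, 0.12 in the 9641 of 2 to 5 FPKM, 0.13 in the 5412 of 5 to 10 FPKM and 0.13 in the 5873 of 10 to 100 FPKM. It was 0.05 in the 666 clusters of 100 to 1000 FPKM and 0.16 in the 81 of 1000 FPKM and over, beside 0.12 in all tested clusters. After median ratio scaling these medians lay between -0.07 (100 to 1000 FPKM) and 0.04 (under 2 FPKM), so the direction for clusters of 100 to 1000 FPKM depended on scaling.

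Changes of at least 1 downward made up 1.19% of clusters under 2 FPKM, 2.89% of those of 2 to 5 FPKM, 5.69% of those of 5 to 10 FPKM, 9.93% of those of 10 to 100 FPKM, 21.3% of those of 100 to 1000 FPKM and 17.3% of those of 1000 FPKM and over. Upward changes of that size went from 0.734% in the lowest class to 5.71% at 100 to 1000 FPKM and 14.8% at 1000 FPKM and over. Without Ck replicate 2 the downward shares in the lowest and the 2 highest classes were 1.61%, 20.7% and 21.0%, and the upward shares 1.51%, 6.46% and 14.8%. Since the scale is log2(FPKM + 1), a change of 1 is harder to reach at low levels in either direction, and the downward share exceeded the upward share in each class. With all libraries in place, separated clusters lower in UL were less frequent at the upper levels, with 1.65% of clusters under 2 FPKM, 0.901% of those of 100 to 1000 FPKM and 0 of the 81 of 1000 FPKM and over, beside 1.2% of all. Those higher in UL made up 2.82%, 3.88%, 4.69%, 5.24%, 3.75% and 6.17% of the 6 classes in order of level, beside 4.02% of all. Separation by class was not counted without Ck replicate 2. Falls called by limma without it, another measure, were more frequent at the upper levels. They made up 0.658% of clusters under 2 FPKM, 13.8% of those of 100 to 1000 FPKM and 11.1% of those of 1000 FPKM and over.

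By length, the share of clusters with the higher mean in UL was lowest in the shortest and highest in the longest class on both scales. It was 53.9% in clusters of up to 500 bases, 62.5% above that and up to 1000, 68.0% up to 2000, 69.5% up to 4000 and 74.0% in those over 4000 bases. After scaling the shares were 46.8%, 51.2%, 54.8%, 54.8% and 57.9%. Without Ck replicate 2 the shortest and the longest class had 57.1% and 75.2% as deposited. The median log2 fold change of the shortest and the longest class was 0.05 and 0.14 as deposited, and -0.03 and 0.04 after scaling. Short clusters also spread more between replicates, with a median SD of 0.55 in Ck and 0.60 in UL for up to 500 bases against 0.21 and 0.22 over 4000 bases. The part of this spread in the order of the classes was not tested. Of the 9 calls among 29578 clusters, 4 were among the 5329 of up to 500 bases and 1 among the 4037 over 4000 bases, too few to compare the classes.

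**Figure D3:**
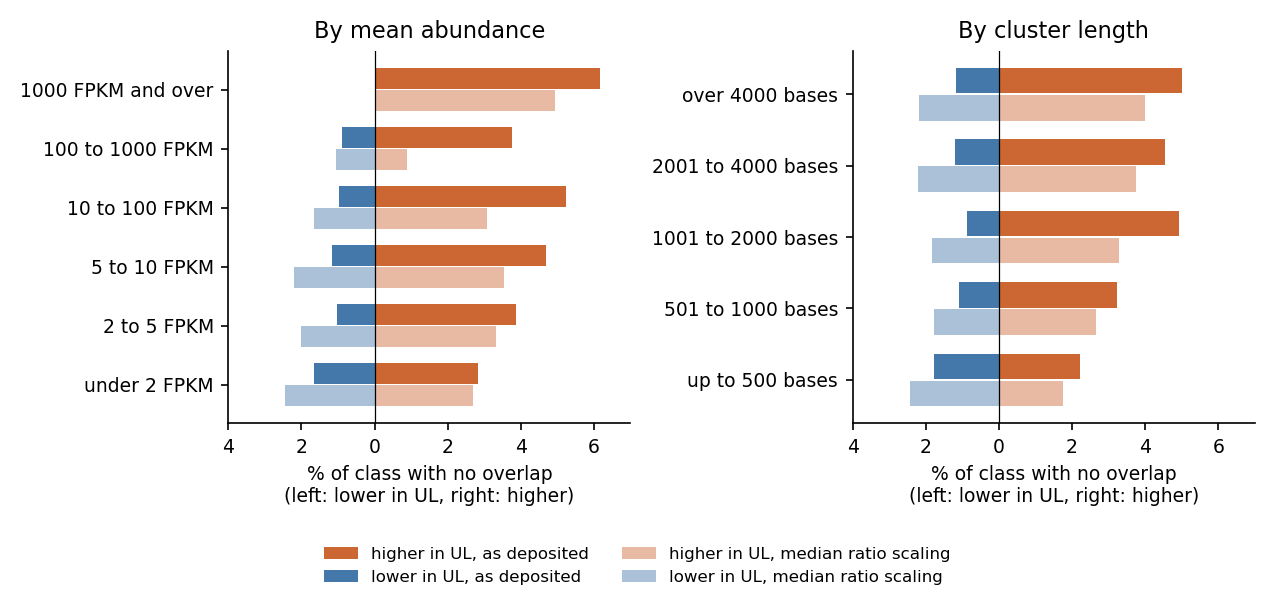
Bars give the percent of clusters of each class whose UL and Ck values did not overlap, lower in UL to the left and higher in UL to the right, as deposited and after median ratio scaling. As deposited the bars to the right are longer in every class; after scaling those for up to 500 bases (1.75% higher, 2.44% lower) and for 100 to 1000 FPKM (0.901% higher, 1.05% lower) lean the other way.

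No other single library moved the number of calls as much as Ck replicate 2. Without it limma called 1478 clusters (5%), of which 295 rose (0.997%) and 1183 fell (4%), and 921 passed in a fit of the 7 remaining UL and Ck libraries alone. All 9 clusters called with every library were among the 1478. With the groups' values counted for overlap, 2216 clusters were lower in UL without Ck replicate 2 (7.49%), against 354 with it. Of the 1420 clusters with a downward change of at least 1, 866 (61.0%) were kept from separating by this library alone, while no other library did so for more than 110.

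In the 1183 falls called without it, Ck replicate 2 lay at the level of UL. The median level was 26.8, 16.4 and 13.3 FPKM in Ck replicates 1, 3 and 4, 2.81 FPKM in Ck replicate 2, and 3.85, 3.67, 2.44 and 2.9 FPKM in UL. Ck replicate 2 was below the other 3 Ck libraries in 1133 of them (95.8%), inside the UL range in 622 and below every UL library in 429. The list was made from high values in the other 3 Ck libraries, which favours clusters where Ck replicate 2 was lower. Over all tested clusters Ck replicate 2 was the lowest of the 8 libraries in 12.0%. Its share below the other 3 Ck libraries was not counted there. The UM and UH libraries, which were not compared in this call, had medians of 11.0 to 27.3 and 19.4 to 24.6 FPKM. With respect to level, 13.8% of the clusters of 100 to 1000 FPKM were among these falls and 0.658% of those under 2 FPKM, beside 4% of all.

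The clusters with the lowest adjusted p show this pattern. Cluster-9253.47223 (1417 bases) had 304.58, 8.27, 161.55 and 122.83 FPKM in Ck, against 11.0, 7.01, 5.52 and 4.83 FPKM in UL. Its log2 fold change was -3.48 ± 0.78 with all libraries (adjusted p = 0.156) and -4.56 without Ck replicate 2 (adjusted p = 0.00011). Cluster-9253.50022 (1991 bases) had 34.19, 1.41, 36.7 and 31.78 FPKM in Ck, against 2.15, 3.1, 1.77 and 2.7 FPKM in UL. The 3 other Ck libraries lay close together, and replicate 2 was below all UL libraries.

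Cluster-9253.48336 (1615 bases) had 26.77, 0.96, 37.75 and 30.91 FPKM in Ck, against 1.78, 2.97, 1.4 and 2.38 FPKM in UL. Cluster-9253.53777 (1551 bases) had 10.37, 0.26, 10.31 and 8.85 FPKM in Ck, against 1.03, 0.56, 0.48 and 0.3 FPKM in UL. Cluster-9253.50022, Cluster-9253.48336 and Cluster-9253.53777 passed without Ck replicate 2, each at an adjusted p of 0.00011, and with it their adjusted p was 0.183 to 0.189. The abundant Cluster-9253.48377 (780 bases) had 8802.79, 320.67, 2217.52 and 2080.65 FPKM in Ck, against 610.04, 700.9, 420.52 and 511.21 FPKM in UL (adjusted p = 0.238, and 0.00281 without Ck replicate 2).

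The 295 rises called without Ck replicate 2 were smaller. Their median level was 1.63, 2.11 and 2.77 FPKM in Ck replicates 1, 3 and 4, 3.9 FPKM in Ck replicate 2 and 3.96 to 5.55 FPKM in UL. Of them 143 were free of overlap with all 4 Ck libraries too. Cluster-9253.63765 (1622 bases) had 6.09, 7.12, 5.26 and 5.84 FPKM in Ck, against 11.67, 9.48, 8.75 and 11.22 FPKM in UL, with a log2 fold change of 0.67 ± 0.12 (adjusted p = 0.07, and 0.00338 without Ck replicate 2). Cluster-9253.48272 (4011 bases) had 7.25, 12.99, 7.4 and 10.48 FPKM in Ck, against 16.35, 15.47, 18.06 and 22.88 FPKM in UL (adjusted p = 0.0994, and 0.00231 without Ck replicate 2).

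Both of these clusters separated the groups with all libraries in place, and the next 2 did not. Cluster-9253.83132 (890 bases) had 0.65, 4.85, 0.63 and 2.17 FPKM in Ck, against 6.88, 6.23, 3.66 and 6.25 FPKM in UL, so that replicate 2 alone reached into the UL range (adjusted p = 0.183, and 0.00368 without it). Cluster-9253.9483 (349 bases) had 0.63, 4.67, 0 and 0 FPKM in Ck, against 3.54, 2.26, 1.7 and 2.55 FPKM in UL, which is at most 5 fragments per UL library (adjusted p = 0.267, and 0.00145 without it).

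**Figure D4:**
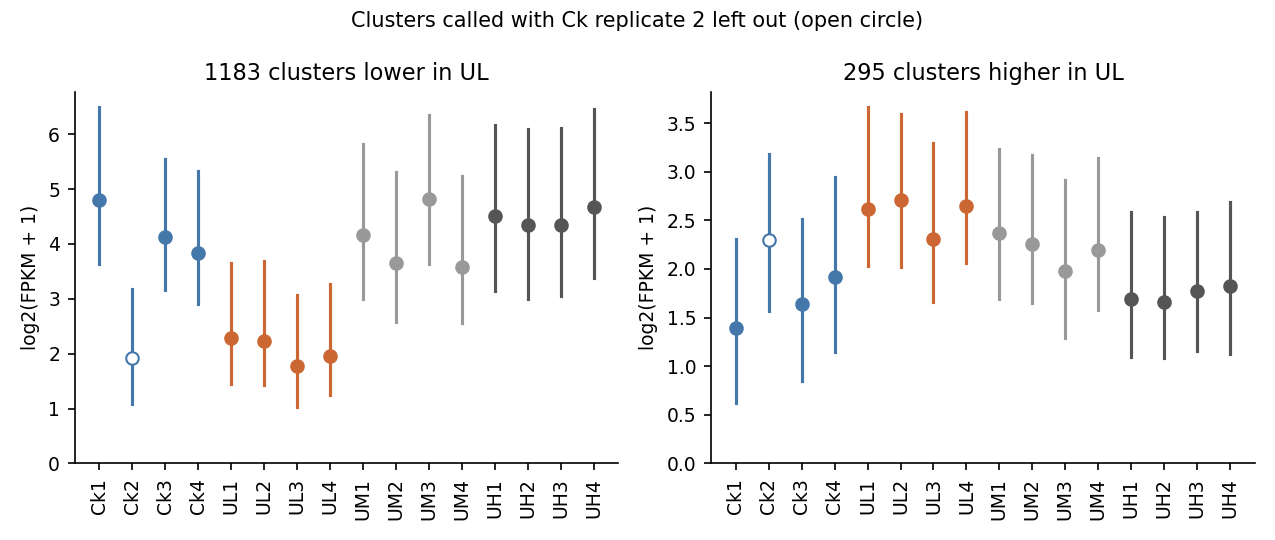
Points give the median and lines the quartiles of log2(FPKM + 1) in each of the 16 libraries, for the 1183 clusters lower and the 295 higher in UL when Ck replicate 2, drawn open, is left out. The open point lies with the UL libraries on the left, at a median of 2.81 FPKM against 13.3 to 26.8 FPKM in the other Ck libraries, and UM and UH lie with those 3.

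The number of calls moved less with the other libraries. Limma called 28 clusters without Ck replicate 3, 38 without Ck replicate 4, 3 without UL replicate 1 and 4 without UL replicate 3. Separation upward moved most with UL replicate 3, without which 4100 clusters (13.9%) were higher in UL free of overlap, against 1189 with it. That count was 2454 without Ck replicate 2 and 2397 without Ck replicate 4. The median log2 fold change was between 0.08 and 0.17 with any 1 of the 8 libraries left out, the highest without UL replicate 3.

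**Figure D5:**
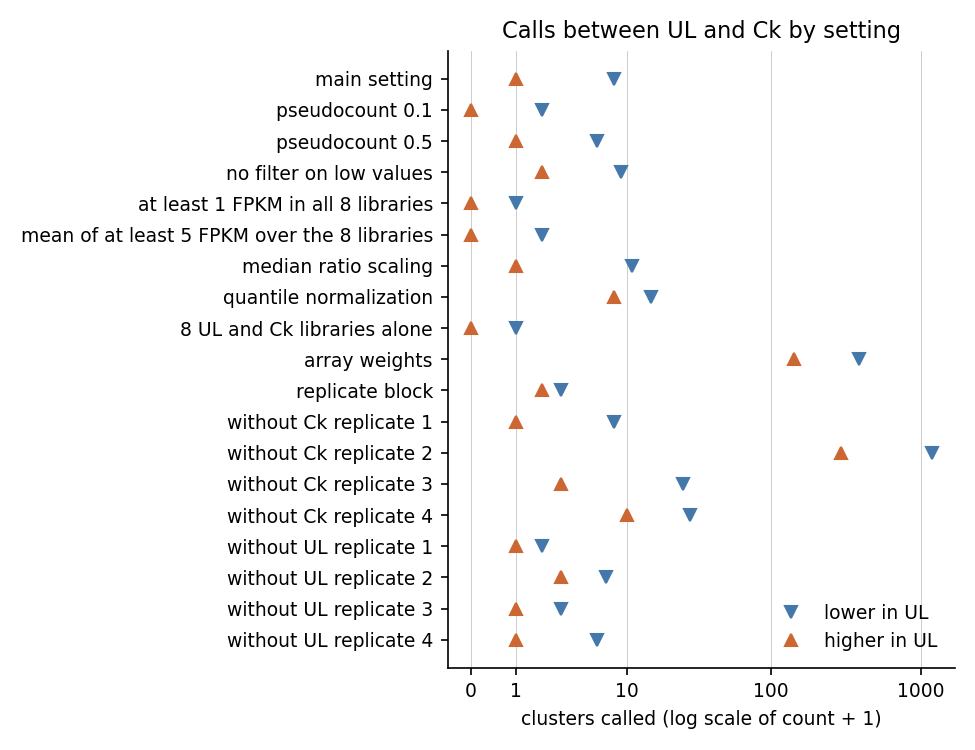
Triangles give the number of clusters called between UL and Ck (log scale of the count + 1) that were lower or higher in UL, for the main setting and the 18 alternatives that change 1 choice. The total is 23 or fewer in those drawn other than array weights (530) and leaving out Ck replicates 2 (1478), 3 (28) or 4 (38).

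Within each group some well expressed clusters were nearly on or off. Of 6620 clusters with a mean of at least 10 FPKM, 308 spanned at least 5 log2 units among the Ck libraries and 274 among the UL libraries. In Ck, 96 of the 308 were high in replicates 1, 3 and 4 and low in replicate 2, and 61 were low in replicate 4 alone. In UL, 72 of the 274 were high in replicate 4 alone, 69 in replicates 1 and 4, and 50 in replicate 3 alone. Over all tested clusters the spread of the groups was similar, with a median SD of 0.30 in Ck and 0.31 in UL on the log2 scale.

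The clusters with the largest spread within groups were short, were high in libraries of both groups and did not pass. Cluster-9253.56721 (370 bases) had 0, 120.03, 0 and 45.77 FPKM in Ck, against 0, 2.77, 1065.17 and 0 FPKM in UL. Cluster-9253.29363 (360 bases) had 0, 232.12, 0 and 145.02 FPKM in Ck, against 2.49, 0.51, 500.16 and 0 FPKM in UL, and Cluster-9253.65620 (341 bases) was high in the same 3 libraries. Cluster-9253.50282 (339 bases) was low in Ck replicate 4 (0.67 FPKM) and UL replicate 3 (0.63 FPKM) and had 59.91 to 961.96 FPKM in the other 6. In the UM and UH libraries the first 3 were at most 0.53 FPKM. Their adjusted p was 0.831 to 0.979.

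Of 8 measures of whole libraries, the lowest p in an exact two-sided permutation test was 0.143 (adjusted over the 8 measures 0.686). The smallest p that 4 against 4 libraries allow is 0.0286, and adjustment over 8 measures would leave a single measure at that value short of the threshold, so the test says little about whether they are alike. Clusters listed above 0 numbered 87581 ± 8313 in Ck and 82075 ± 5836 in UL (SD, n = 4). Clusters above 0 and under 1 FPKM numbered 53594 ± 4538 and 46983 ± 3669. The 10 most abundant clusters took 16.2% ± 2.55 of the FPKM sum in Ck and 20.6% ± 5.18 in UL, with 27.9% in UL replicate 1.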

How the data were processed

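Per the labels' protocols, messenger RNA was pulled down with poly-T beads, fragmented and turned into Illumina libraries by random priming. Per the file headers, the authors deposited FPKM per cluster (2 decimals). Which assembler, aligner and counter they used is not given in the sources used here. A mouse build, mm10, stands in the submitters' processing notes; it does not match the organism, and the clusters carry no positions. FPKM carries no depth, so depth and fragment length were estimated by a search for the step that makes low values of clusters of 500 to 900 bases most nearly whole. Of the values worth up to 10 fragments, 99.1 to 99.3% came out whole within 0.1. On shorter clusters the commonest value at a length was taken as 1 fragment. Fragment numbers are estimates, and no count model was used.

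Values entered limma 3.58.1 (R 4.3.3) as log2(FPKM + 1) with a mean-variance trend. All 16 libraries were fitted, which leaves 12 residual degrees of freedom, after a filter of at least 1 FPKM in at least 4 of the 8 UL and Ck libraries. The test was two-sided, and the fit was tested on simulated data. Named were all calls, the 6 largest rises and 6 largest falls in level without overlap at a mean of at least 10 FPKM, the 5 most abundant clusters, up to 3 per direction listed at 0 in one group, the 5 per direction with the lowest adjusted p without Ck replicate 2, the 4 with the largest spread within groups, and 2 clusters known from earlier work on this table. The groups, lists and tests were chosen with earlier results of these data known. Alternatives covered pseudocounts, filters, scaling, weights, the libraries fitted and a replicate block. Those leaving out Ck replicate 2 together with another choice were chosen after seeing the data. UM and UH enter only through the shared spread and as levels beside UL and Ck.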

Additional observations from a re-analysis of the deposited data

Results flagged for a closer look

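In 11 of 91 groups of 4 values checked, 1 library lay far from the other 3, by Dixon's 95% criterion on the log2(FPKM + 1) scale for clusters; chance flags about 1 in 20 such groups, and clusters that follow one pattern are not independent. Ck replicate 2 was the odd library for Cluster-9253.50022 (1.41 FPKM), Cluster-9253.53777 (0.26 FPKM) and Cluster-9253.48336 (0.96 FPKM), all named because they passed without it, and for Cluster-9253.77265, where it was the highest (5.76 FPKM). Ck replicate 1 was the low library for Cluster-9253.68278 (0.18 FPKM), Cluster-9253.53036 (6.13 FPKM) and Cluster-9253.45104 (38.83 FPKM). In UL, replicate 3 stood apart for Cluster-9253.65620 (935.48 FPKM) and Cluster-9253.83132 (3.66 FPKM). UL replicate 4 did so for Cluster-9253.3052 (10.02 FPKM) and UL replicate 1 for Cluster-9253.41830, where it was listed at 0.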

How the results depend on the processing

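The number of clusters called between UL and Ck (9) was the result that depended most on the processing. It was 2 with a pseudocount of 0.1, 1 with at least 1 FPKM required in all 8 libraries, 2 with a mean of at least 5 FPKM, 23 with quantile normalization, 1 in the fit of the 8 libraries alone and 530 with array weights. With the replicate block it was 5. Deviations of same-numbered Ck and UL libraries had correlations across clusters of 0.177, -0.171, -0.149 and -0.347, and pairs with other numbers had -0.174 to 0.376. The labels do not say whether the numbers pair the samples, and these values, over clusters that are not independent, cannot decide it. With 1 library left out the number of calls ran from 3 to 1478. Chosen after seeing the data, leaving out Ck replicates 2 and 4 together gave 2109, the 7 UL and Ck libraries alone without Ck replicate 2 gave 921, and median ratio scaling without it gave 1676. The cause of these differences was not tested.

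Counts of separated clusters under another filter rest on another number of clusters and do not compare directly. Main counts are out of 29578 clusters, against 132165 with no filter, 20216 with at least 1 FPKM in all 8 libraries and 12449 with a mean of at least 5 FPKM. Clusters free of overlap and higher in UL (1189) were 2019 with no filter, 595 with a mean of at least 5 FPKM and 1377 to 4100 with 1 library left out. Those lower in UL (354) were 611 after median ratio scaling and 493 to 2216 with 1 library left out. By filter they were 1429 with none, 182 with at least 1 FPKM in all 8 libraries and 133 with a mean of at least 5 FPKM. The median log2 fold change kept its sign in the 18 alternatives run for it.

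Differences that changed sign had not passed in the first place. With 1 library left out, the difference in depth, in units of 1000000 fragments, ran from -0.722 to 0.383 and that in the share of the most abundant cluster from -0.144 to 3.08 percentage points. Log2 fold changes ran from -0.034 to 0.51 for Cluster-9253.47764, -0.069 to 1.27 for Cluster-9253.51649, -2.48 to 1.14 for Cluster-9253.56721, -2.96 to 0.44 for Cluster-9253.29363, -3.05 to 0.48 for Cluster-9253.65620 and -1.02 to 2.60 for Cluster-9253.50282. Under quantile normalization Cluster-9253.47660 came to -0.13 and Cluster-9253.48231 to -0.05. Depth sets the step between values on short clusters, where a single fragment at 500 bases stands for 0.207 to 0.258 FPKM.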

Other observations

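The most abundant clusters gave no call between UL and Ck. Cluster-9253.47660 (452 bases) had 10918.87, 17380.27, 14111.75 and 11823.59 FPKM in Ck, against 15935.89, 19490.09, 17146.36 and 13138.02 FPKM in UL (adjusted p = 0.575 in limma). Cluster-9253.48231 (750 bases) had 7172.96 to 14724.32 FPKM in Ck and 9319.34 to 14479.35 FPKM in UL (adjusted p = 0.753). These 2 clusters ranked the Ck libraries alike at the top, with Ck replicate 2 highest in both, and their groups overlapped.

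Cluster-9253.51649 (377 bases) and Cluster-9253.47764 (703 bases) were higher in UL replicate 1 than in the other 7 UL and Ck libraries. The first had 35152.72 FPKM there against 2180.43 to 4652.91 FPKM in the other UL libraries and 2329.49 to 4161.51 FPKM in Ck (adjusted p = 0.539), and 7115.04 to 18151.75 FPKM in UM. The second had 137624.41 FPKM there against 44216.72 to 55258.63 FPKM in the other UL libraries and 46862.25 to 57879.21 FPKM in Ck (adjusted p = 0.627), and 78166.09 to 121868.49 FPKM in UM. Cluster-9253.45104 (1482 bases) had 13023.49 to 24070.78 FPKM in UL and 9612.4 to 20485.46 FPKM in Ck replicates 2, 3 and 4, but 38.83 FPKM in Ck replicate 1 (adjusted p = 0.653). Its UM values were 67.64 to 24415.68 FPKM and its UH values 15.08 to 27193.49 FPKM.

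The names of 29427 tested clusters share their first number, and those of 151 have another. In the 151 the median log2 fold change was 0.08, 3 clusters were higher in UL without overlap (1.99%) and none lower, and 0 were called in limma (20 had an unadjusted p under 0.05, 14 of them higher in UL).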
